A study of Mus musculus with 12 samples.

Results

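Messenger RNA levels of 10 genes of sodium uptake and corticosteroid signalling were examined in mpkCCD cells, a mouse cell line of cortical collecting duct principal cells. The members are the epithelial sodium channel (ENaC) subunit genes Scnn1a, Scnn1b and Scnn1g, the receptor genes Nr3c1 and Nr3c2, the steroid-converting enzyme gene Hsd11b2, the corticosteroid-induced genes Sgk1, Tsc22d3 and Fkbp5, and the ubiquitin ligase gene Nedd4l. They are given by name, with no limit on their values, and all 10 were found among the 52015 genes used. The choice was made with earlier results of these data known.

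The RNA-seq experiment had 12 libraries in 4 groups. Scr_300 and Scr_600 are cells transduced with a scramble, non-targeting guide RNA and had 2 libraries each. Nfat5-KO_300 and Nfat5-KO_600 are cells in which Nfat5 was targeted by CRISPR/Cas9 and had 4 libraries each, 2 from each of the clones N1 and N3. Osmolality was 300 mosmol/kg in the isotonic groups. It was 600 mosmol/kg in the hypertonic groups, reached with 100 mM NaCl and 100 mM urea, and all cells were kept in their medium for 5 days. NFAT5 is the transcription factor through which many cells respond to hypertonicity. The design asks how hypertonicity and the loss of Nfat5 affect transcript levels, and with 2 clones the effect of the knockout and differences between clones cannot be told apart. In the same way, fewer cells expressing a gene and less RNA per cell cannot be told apart in bulk samples.

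In principal cells ENaC lets sodium enter from the urine, and its alpha, beta and gamma subunits assemble into 1 channel. Aldosterone acts through the mineralocorticoid receptor, the product of Nr3c2, and induces Sgk1, a kinase that phosphorylates the ubiquitin ligase NEDD4-2 (Nedd4l) and so keeps ENaC at the cell surface. Cortisol and corticosterone bind the same receptor and are inactivated by HSD11B2, while the glucocorticoid receptor (Nr3c1) induces Tsc22d3 (GILZ) and Fkbp5. GILZ is a regulator of transcription, and FKBP5 is a co-chaperone that lowers the hormone affinity of the receptor.

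Levels are FPKM, fragments scaled by exon length and by library depth, so they can be compared between genes. The deposited table gives 1 value per gene and group, which is the mean of its libraries. For the Scr groups the reads of each library could be solved from these values. In each Scr group a deeper and a shallower library are named after their read totals. These names do not match libraries between the 2 osmolalities. In the knockout groups, with 4 libraries, library reads could be solved only for genes with few reads. The knockout libraries are called A to D in order of depth. The per-library scale was about 32000000 to 37100000 reads in the Scr groups and 29300000 to 37500000 reads in the knockout groups. The Scr comparison of 600 with 300 mosmol/kg was therefore tested with limma, and the comparisons that involve the knockout are given without a test. A log2 ratio is that of FPKM + 0.1, which understates the change of low genes, and is left out where a group was under 0.1 FPKM. Genes with at least 0.5 FPKM in either group were counted, and 2-fold is the limit used to call a ratio.

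**Figure D1:**
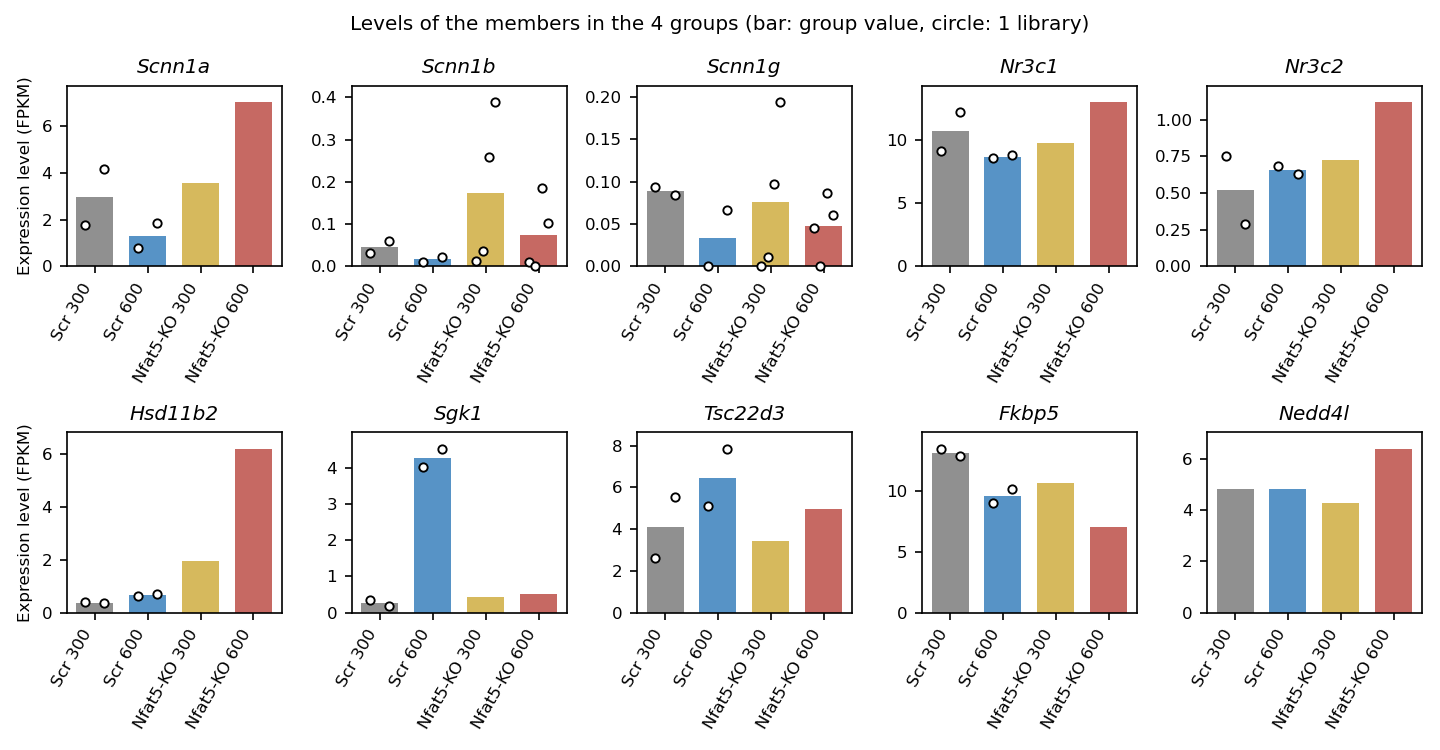
Expression level in FPKM (y axis, linear, a scale of its own per gene) of the 10 genes in the 4 groups. Bars are the group values and circles are libraries for which reads could be solved. Sgk1 is high in Scr_600 only among the 4 groups, and Hsd11b2 and Scnn1a are highest in Nfat5-KO_600.

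The targeted gene itself was read first. Nfat5 had 5.61 and 5.60 FPKM in the deeper and the shallower Scr_300 library and 8.64 and 7.22 FPKM in those of Scr_600. The knockout groups had 3.47 FPKM at 300 mosmol/kg and 6.88 FPKM at 600 mosmol/kg. The transcript was thus below the Scr value in both knockout groups, with log2 ratios of -0.68 and -0.20, but it was present. A small deletion or insertion can abolish a protein and leave its transcript, so this level does not check the knockout. The labelled cell type was compared with its markers. Of the 12 principal cell markers, 7 reached 0.5 FPKM in a group, and all 12 summed to 873 to 1189 FPKM. The keratin genes Krt8 and Krt18 had 188 to 375 and 469 to 738 FPKM and Cdh16 had 29.7 to 186 FPKM. Tfcp2l1 had 25.1 to 53.4 FPKM, Gata3 3.41 to 30.0 FPKM and Aqp3 2.07 to 2.93 FPKM. Kcnj1 had at most 0.725 FPKM, Fxyd4 0.455, Aqp4 0.0452 and Elf5 0.0141 FPKM. Aqp2, the vasopressin-regulated water channel of principal cells, had at most 0.245 FPKM and the vasopressin receptor gene Avpr2 at most 0.0193 FPKM. The 7 intercalated cell markers summed to 0.558 to 1.16 FPKM, the 5 fibroblast markers to 0.0521 to 0.249 FPKM the 5 proximal tubule markers to 0.0165 to 1.08 FPKM, the 5 markers of the thick ascending limb and distal convoluted tubule to 0.578 to 0.842 FPKM and the 4 leukocyte markers to 1.45 to 2.67 FPKM.

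Sgk1 (chromosome 10, 21882184 to 21999903, plus strand, GRCm38) showed the largest hypertonic change of the members in Scr cells. In Scr_300 its level was 0.346 FPKM in the deeper library and 0.179 FPKM in the shallower, from 61 and 28 reads. In Scr_600 it was 4.03 and 4.53 FPKM, from 734 and 780 reads. Both hypertonic libraries lay far above both isotonic ones. By limma, Sgk1 rose by 3.63 on the log2 scale (SE 0.311, adjusted p = 0.0142 by Benjamini-Hochberg over 11918 genes). It was the only 1 of 7 tested members to pass, where 1.59% of all genes tested were called and 0.948% rose. The call rests on all but 1 of the libraries. Without the shallower Scr_300 library the adjusted p was 0.0765, without the deeper Scr_600 library 0.104 and without the shallower Scr_600 library 0.136. Without the deeper Scr_300 library it was 0.0442. The log2 change was 3.29 to 3.97 over these fits, which called 0 to 16 genes in all against 189 with every library. Without the filter on low values the adjusted p of Sgk1 was 0.0964.

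In the knockout cells Sgk1 stayed near its isotonic level, with 0.444 FPKM at 300 mosmol/kg and 0.513 FPKM at 600 mosmol/kg. Its log2 ratio of 600 to 300 mosmol/kg was 3.60 for Scr and 0.17 for the knockout, a difference of -3.42. At 600 mosmol/kg the level in the knockout was 7.15-fold lower than in Scr cells on the FPKM + 0.1 scale, a log2 ratio of -2.84 that ranked 39th from the lowest among 13063 genes. The mean of 4 libraries bounds each of them, since no library can exceed 4 times the mean. For Sgk1 in Nfat5-KO_600 this bound was 2.05 FPKM, so all 4 knockout libraries lay below both Scr_600 libraries. The same bound separated 0.635% of the 12121 genes for which it could be formed. The group values allowed 6 sets of whole reads in Nfat5-KO_300 and 5 in Nfat5-KO_600. In every set the highest and the lowest library differed at least 2.62-fold in Nfat5-KO_300 and at least 2.42-fold in Nfat5-KO_600, and no library of Nfat5-KO_600 was above 1.71 FPKM.

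The 250 bases before the start sites that RefSeq lists for Sgk1 (GRCm38.p6) are shown for 1 of its 6 start sites, because it is the only window of a member in which a steroid receptor element and an NFAT5 core were both found. It lies at chr10:21993640-21993889 on the plus strand and ends next to the start site at 21993890. The capitals mark the palindrome that glucocorticoid and mineralocorticoid receptors bind, GNACA and TGTNC with any 3 bases between, at bases -188 to -176, and TGGAAA, the core of the NFAT5 element, at bases -163 to -158.
Sgk1: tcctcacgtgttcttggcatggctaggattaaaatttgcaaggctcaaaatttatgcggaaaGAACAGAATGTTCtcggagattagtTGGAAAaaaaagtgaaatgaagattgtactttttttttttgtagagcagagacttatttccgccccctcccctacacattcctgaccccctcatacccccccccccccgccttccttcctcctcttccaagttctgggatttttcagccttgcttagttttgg
Both strands were searched, and the 2 motifs do not overlap. The palindrome was found in 0.387% of the 32851 windows of this length in the table, TGGAAA in 18.6% and both in 0.1%. Windows were given for 6 of the 10 members. Besides this one, TGGAAA was found in the Sgk1 window that ends at 21882183 and in the window of Nr3c2, and neither motif was found in those of Scnn1b, Scnn1g, Fkbp5 and Tsc22d3. Which start site these cells use was not measured, and a match of letters is not a binding site.

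Of the ENaC subunits, only Scnn1a was expressed above 0.5 FPKM. Scnn1a encodes the alpha subunit (chromosome 6, 125320659 to 125344943, plus strand). In Scr_300 it had 1.75 FPKM in the deeper and 4.16 FPKM in the shallower library, from 260 and 549 reads. In Scr_600 it had 0.769 and 1.86 FPKM, from 118 and 270 reads. The shallower library was the higher at both osmolalities, and the ranges of the 2 groups overlap. The hypertonic change in Scr cells, -1.10 on the log2 scale, did not pass the limma test (SE 0.539, adjusted p = 0.294). It was -1.71 without the deeper Scr_300 library, -0.50 without the shallower, -0.52 without the deeper Scr_600 library and -1.69 without the shallower. In the knockout cells the group value was 3.56 FPKM at 300 mosmol/kg and 7.03 FPKM at 600 mosmol/kg, a log2 ratio of 0.96.

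Scnn1a thus had ratios of opposite sign in the 2 genotypes, lower at 600 mosmol/kg in Scr cells and higher in Nfat5-KO cells. The ratios differed by 2.07, and this difference was not tested. At 300 mosmol/kg the knockout value lay between the Scr libraries, with a log2 ratio of 0.26. At 600 mosmol/kg it lay above both, 5.04-fold over the Scr value, a log2 ratio of 2.33 that ranked 52nd from the highest of 13063 genes. With a bound of 28.1 FPKM per library, the knockout libraries could not be placed against those of Scr_600.

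Scnn1b and Scnn1g, for the beta and gamma subunits, were near the limit of detection in all 4 groups. They lie next to each other on chromosome 7, at 121865038 to 121918514 and at 121734479 to 121768475. Scnn1b had 3 and 5 reads in the Scr_300 libraries and 1 and 2 reads in those of Scr_600. In Nfat5-KO_300 it had 1, 3, 21 and 30 reads in libraries A to D, or 0.0116, 0.0351, 0.259 and 0.388 FPKM. In Nfat5-KO_600 libraries A to D had 1, 0, 17 and 9 reads. At both osmolalities 2 knockout libraries had no more reads than the higher Scr library and the other two had more. The library names of the knockout groups do not carry over between osmolalities, and which clone a library came from was not determined.

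Scnn1g had 10 and 8 reads in Scr_300 and 0 and 7 reads in Scr_600. The knockout libraries A to D had 0, 1, 9 and 17 reads at 300 mosmol/kg and 5, 0, 9 and 6 reads at 600 mosmol/kg. The reads of the knockout and the Scr groups overlapped at both osmolalities. A count of 0 allows up to 3 reads, which for Scnn1g in Scr_600 is 0.0270 FPKM and covers counting error only. No fold change is given for either gene, since every comparison had a group under 0.1 FPKM. Neither gene reached 0.5 FPKM in any group. The level of Scnn1a in Scr_300, 2.95 FPKM, compares with 0.0455 FPKM for Scnn1b and 0.0883 FPKM for Scnn1g.

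Hsd11b2 (chromosome 8, 105518755 to 105523988, plus strand) was the member with the largest difference between knockout and Scr cells at both osmolalities. In Scr_300 it had 0.408 and 0.357 FPKM, from 27 and 21 reads, and in Scr_600 0.615 and 0.696 FPKM, from 42 and 45 reads. Both Scr_600 libraries were above both Scr_300 libraries. The change of 0.65 on the log2 scale did not pass the limma test (SE 0.362, adjusted p = 0.349). The knockout groups had 1.95 FPKM at 300 mosmol/kg and 6.18 FPKM at 600 mosmol/kg, above every Scr library.

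Knockout over Scr, the Hsd11b2 ratio was 4.25-fold at 300 mosmol/kg and 8.32-fold at 600 mosmol/kg. These log2 ratios of 2.09 and 3.06 ranked 33rd from the highest of 12704 genes and 17th of 13063. The hypertonic ratio was 3.07-fold in Nfat5-KO cells, a log2 ratio of 1.62 against 0.65 in Scr cells. The libraries of Nfat5-KO_300 were unequal. The group value allowed 5 sets of reads, and in each the highest library had at least 2.87 FPKM and the lowest at most 1.07 FPKM, at least 2.74-fold apart. Whether all knockout libraries lay above the Scr libraries was therefore not shown. The lowest possible library, 0.159 FPKM, is below both of those in Scr_300.

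The receptor genes differed less. Nr3c1, for the glucocorticoid receptor (chromosome 18, 39410545 to 39519421, minus strand), had 9.18 and 12.2 FPKM in Scr_300 and 8.55 and 8.84 FPKM in Scr_600. Both hypertonic libraries were below both isotonic ones, but the change of -0.28 did not pass the test (SE 0.170, adjusted p = 0.378 by limma). It was -0.49 without the deeper Scr_300 library and -0.08 without the shallower. In the knockout groups Nr3c1 had 9.76 and 13.0 FPKM at 300 and 600 mosmol/kg, and the value at 600 mosmol/kg was 1.49-fold that of Scr_600 and above both of its libraries.

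Nr3c2, for the mineralocorticoid receptor (chromosome 8, 76899442 to 77245012, plus strand), was expressed at a lower level than Nr3c1 in every group. It had 0.752 and 0.290 FPKM in Scr_300, from 175 and 60 reads, and 0.682 and 0.629 FPKM in Scr_600, from 164 and 143 reads. The isotonic libraries enclosed the hypertonic ones, and the limma change was 0.39 (SE 0.479, adjusted p = 0.667). This value turned to -0.17 without the shallower Scr_300 library and was 0.95 without the deeper. The knockout groups had 0.724 and 1.12 FPKM. The second of these was 1.61-fold over Scr_600 on the FPKM + 0.1 scale, under the limit of 2-fold.

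The corticosteroid-induced genes other than Sgk1 did not share its pattern of levels. Tsc22d3 (chromosome X, 140539528 to 140600659, minus strand) had 2.63 and 5.55 FPKM in Scr_300 and 5.09 and 7.84 FPKM in Scr_600. The shallower library was the higher in both groups, the ranges overlapped, and the change of 0.71 did not pass the test (SE 0.388, adjusted p = 0.340 by limma). It was 0.19 without the deeper Scr_300 library, 1.23 without the shallower and 0.40 without the shallower Scr_600 library. In Nfat5-KO cells Tsc22d3 had 3.43 FPKM at 300 and 4.97 FPKM at 600 mosmol/kg. The hypertonic log2 ratios in the 2 genotypes, 0.65 and 0.52, differed by -0.13.

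Fkbp5 (chromosome 17, 28399094 to 28517527, minus strand) was lower at 600 mosmol/kg in both genotypes. It had 13.5 and 12.8 FPKM in Scr_300 and 9.01 and 10.1 FPKM in Scr_600, with no overlap of the libraries. The change of -0.46 did not pass the test (SE 0.126, adjusted p = 0.136 by limma). The knockout groups had 10.7 and 7.0 FPKM, below both Scr libraries at the same osmolality, and their hypertonic log2 ratio was -0.60. Nedd4l (chromosome 18, 64887705 to 65217828, plus strand) had 4.82 FPKM in Scr_300 and again 4.82 FPKM in Scr_600, and 4.29 and 6.40 FPKM in the isotonic and the hypertonic knockout group. Its library reads could not be solved, and its largest log2 ratio was 0.57, at 600 against 300 mosmol/kg in the knockout.

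Counted over the members, at 300 mosmol/kg 1 of 7 was at least 2-fold different in Nfat5-KO cells, Hsd11b2, beside 4.17% of all genes counted (1.73% higher and 2.44% lower). At 600 mosmol/kg Hsd11b2 and Scnn1a were higher and Sgk1 was lower, 3 of 8 members, beside 7.44% of all genes (3.76% higher and 3.68% lower). For 600 against 300 mosmol/kg in Scr cells Sgk1 was at least 2-fold higher and Scnn1a lower, 2 of 8 members, beside 7.67% of all genes (4.81% higher and 2.86% lower). Scnn1a was under the limit with a pseudocount of 1 (-0.77) and with the groups scaled to the same sum of FPKM (-0.99). In Nfat5-KO cells 1 of 8 was, Hsd11b2, beside 10.4% (6.25% higher and 4.11% lower), and Scnn1a was just under the limit. The hypertonic ratios of the 2 genotypes differed by at least 1 on the log2 scale for Sgk1 and Scnn1a, and for 5.12% of all genes, while Hsd11b2 was just under that limit at 0.97. The comparisons share groups, so these counts are not independent of each other. The members were chosen with earlier results of these data known, so their counts beside the shares of all genes are a description.

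Overlap was also read from the library values. For 600 against 300 mosmol/kg in Scr cells, 7 members were counted with solved libraries. Both Scr_600 libraries were above both Scr_300 libraries for 2 of them, Sgk1 and Hsd11b2, beside 23.6% of all genes. They were below for 2, Nr3c1 and Fkbp5, beside 31.9%, and 3 overlapped. At 300 mosmol/kg the knockout value was above both Scr libraries for 1 of 6 members, Hsd11b2, beside 38.2% of all genes, below both for 1, Fkbp5, beside 35%, and between them for 4. No member was separated there by the bound on the knockout libraries, as 0.467% of all genes were. This bound can separate only genes that are lower in the knockout, so it could not separate Hsd11b2. At 600 mosmol/kg the knockout value was above both Scr libraries for 4 of 7 members, Scnn1a, Nr3c1, Nr3c2 and Hsd11b2, beside 36.3% of all genes. It was below both for the other three, Sgk1, Tsc22d3 and Fkbp5, beside 37.5%.

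**Figure D2:**
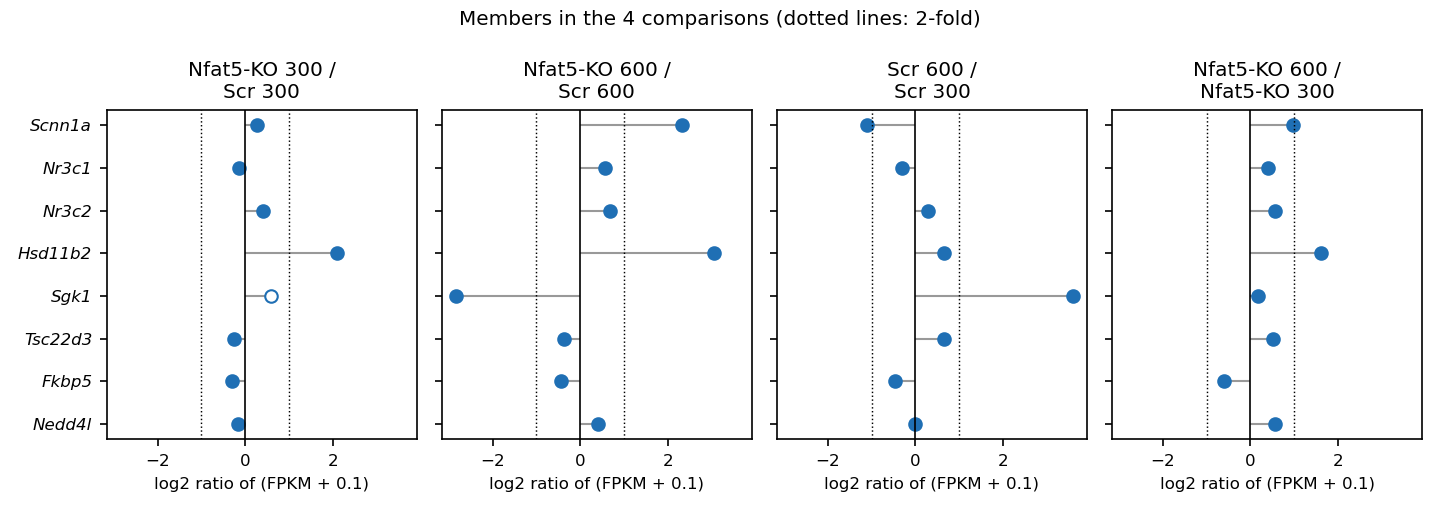
Log2 ratio of FPKM + 0.1 (x axis) for the 8 members with a ratio, in the 4 comparisons. Filled points were counted, the open point had under 0.5 FPKM in both groups, and dotted lines mark 2-fold. Hsd11b2 is to the right of the 2-fold line in 3 of the 4 panels, and Sgk1 is to the left in Nfat5-KO_600 over Scr_600 and to the right in Scr_600 over Scr_300.

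**Figure D3:**
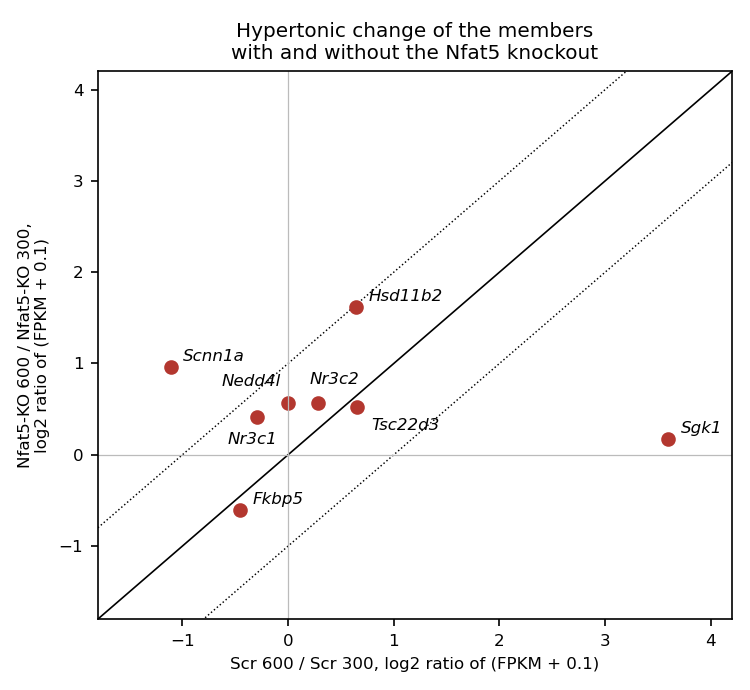
Log2 ratio of 600 to 300 mosmol/kg in Nfat5-KO cells (y axis) against that in Scr cells (x axis), 1 point per member. The solid line marks equal ratios and the dotted lines a difference of 1. Sgk1 lies below the line, with a difference of -3.42, and Scnn1a above it, with 2.07.

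The genes whose profile over the 4 group values was nearest to that of each 2-fold changed member were sought among the 11921 genes that reached 1 FPKM in any group. Nearness was the Euclidean distance of the log2 values of FPKM + 0.1 after the mean of the 4 groups was taken off. For genes with a group under 0.1 FPKM, here 1700016C15Rik, Atoh8 and Lrp2, the distance depends on the added 0.1. For Sgk1 they were Rnf183 (distance 0.48), Ifi27 (0.70) and 1700016C15Rik (0.81). Rnf183, a ubiquitin ligase gene of the kidney, had 0.525 FPKM in Scr_300, 7.68 in Scr_600, 0.694 in Nfat5-KO_300 and 1.32 in Nfat5-KO_600. For Hsd11b2 they were Gata3 (0.42), Atoh8 (0.52) and Lrp2 (0.53). Gata3, a transcription factor gene of the collecting duct lineage, had 3.41, 4.33, 11.8 and 30.0 FPKM in the same order of groups. The Scr libraries of Gata3 differed within a group. Its limma log2 change in Scr cells was 0.05 (SE 0.594, adjusted p = 0.972), where the group values gave 0.33. Lrp2, which encodes the endocytic receptor megalin and was on the list of proximal tubule markers, had 0.000936, 0.0116, 0.168 and 1.07 FPKM. The other 4 markers on that list were at most 0.0156 FPKM in any group, and the part of such cells in the Hsd11b2 values was not tested. For Scnn1a the nearest genes were Akr1c19 (0.25), Abcc3 (0.34) and Ephx1 (0.35), the last of which encodes microsomal epoxide hydrolase.

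Other genes that act on ENaC were taken from a list of 28, of which 24 or 25 were counted in each comparison. The list covers kinases, ubiquitin ligases and their adaptors, proteases and protease inhibitors. In Scr cells 22 of them were tested and 1 rose at 600 mosmol/kg. This was Furin, a protease that cleaves the channel and so activates it, with 7.80 FPKM in Scr_300 and 14.6 FPKM in Scr_600 (log2 0.90, SE 0.116, adjusted p = 0.0388 by limma). The adjusted p was 0.120 to 0.236 with any 1 library left out and 0.113 without the filter. None fell by this test, where 1.59% of all genes were called in either direction and 0.948% rose. By group values 2 of 24 listed genes were at least 2-fold lower at 600 mosmol/kg in Scr cells, beside 2.86% of all genes. These were Tmprss4 (log2 ratio -1.28) and Sgk2 (-1.14), and none was at least 2-fold higher. Tmprss4, a membrane protease, had 3.99, 1.59, 1.90 and 1.84 FPKM in Scr_300, Scr_600, Nfat5-KO_300 and Nfat5-KO_600 and was at least 2-fold lower in the knockout at 300 mosmol/kg, 1 of 24 listed genes, beside 2.44% of all genes.

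Sgk2, a kinase related to SGK1, differed from Sgk1 in its levels. It had 2.12 FPKM in Scr_300, 0.908 in Scr_600, 2.30 in Nfat5-KO_300 and 3.60 in Nfat5-KO_600. The log2 ratio of knockout to Scr at 600 mosmol/kg was 1.88, where that of Sgk1 was -2.84. In Scr cells the change of -1.03 did not pass the test (SE 0.433, adjusted p = 0.240 by limma). For Sgk3 the levels were 3.21, 1.97, 3.38 and 3.98 FPKM, with a log2 ratio of 0.98 between knockout and Scr at 600 mosmol/kg. Of the 19 paralogues of the members, 13 were counted for 600 against 300 mosmol/kg in knockout cells. Of these 1 was at least 2-fold higher, beside 6.25% of all genes. This was Asic1, an acid-sensing relative of ENaC, with 0.979 and 2.21 FPKM in the isotonic and the hypertonic knockout group. Asic1 was also higher at 600 mosmol/kg in Scr cells, with 0.632 and 1.34 FPKM, a change that did not pass the test (adjusted p = 0.159 by limma). Its log2 ratios of knockout to Scr were 0.56 at 300 and 0.68 at 600 mosmol/kg, under the limit of 2-fold. The progesterone receptor gene Pgr was listed at 0 in all 4 groups.

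Enzymes and carriers of steroids formed a list of 13, of which 7 or 8 were counted. Hsd11b1, whose enzyme regenerates the active glucocorticoid that HSD11B2 removes, had 0.739 and 0.970 FPKM in Scr_300 and Scr_600 and 0.234 and 0.265 FPKM in the knockout groups. Its log2 ratios of knockout to Scr were -1.33 and -1.55, opposite in sign to the 2.09 and 3.06 of Hsd11b2. H6pd, which supplies the cofactor of HSD11B1, had 20.4, 36.7, 24.4 and 32.6 FPKM. Of 8 genes tested in Scr cells 1 rose, Hsd17b11, an enzyme of steroid and lipid metabolism, with 4.44 and 12.0 FPKM (log2 1.40, SE 0.209, adjusted p = 0.0497 by limma), beside 0.948% of all genes. Its adjusted p was 0.0841 to 0.235 with any 1 library left out, 0.141 without the filter and 0.0520 or 0.0541 where the pseudocount was 1 or 0.01.

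The chaperones that fold and hold the steroid receptors were highly expressed, with Hsp90ab1 at 579 to 934 FPKM. At 600 mosmol/kg 14 of 15 had lower values than at 300 mosmol/kg in Scr cells, with a median log2 ratio of -0.17 beside -0.04 for all genes, and 14 of 15 in Nfat5-KO cells, with a median of -0.25 beside -0.04. None was 2-fold different, and none of the 11 tested in Scr cells passed. With the groups scaled to the same sum of FPKM these counts became 11 and 8 of 15. Of the 11 coregulators of the receptors counted, 10 had higher values at 600 mosmol/kg in Scr cells, with none of them passing the test, and 9 had in Nfat5-KO cells. The median log2 ratios were 0.17 and 0.45, beside -0.04 for all genes in both comparisons.

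Of 26 genes known to be induced by glucocorticoids, 18 or 19 were counted. At 600 mosmol/kg 8 of 19 were at least 2-fold lower in the knockout, beside 3.68% of all genes, and 2 were at least 2-fold higher, beside 3.76%. The median log2 ratio was -0.47 beside -0.02 for all genes. The lowest were Ampd3, an AMP deaminase gene, with 17.3 FPKM in Scr_600 and 2.26 in Nfat5-KO_600 (log2 -2.88), Anxa1, for the anti-inflammatory annexin, with 275 and 42.6 FPKM (-2.69), the phosphatase gene Dusp1 with 11.8 and 3.05 FPKM (-1.92), and Lcn2, for lipocalin 2, with 195 and 63.1 FPKM (-1.63). Angptl4, for an inhibitor of lipoprotein lipase, was higher in the knockout, with 0.382 and 1.36 FPKM (1.59). Among the 8 lower genes, the limma SE in Scr cells was 0.678 for Mt1, 0.647 for Dusp1 and 0.608 for Ddit4. It was 0.324 for Cebpd, 0.167 for Arrdc2, 0.142 for Ampd3 and 0.136 for Lcn2, and Anxa1 was not tested. The Scr values of genes with a large SE are less certain. Many of the listed genes also respond to other stimuli. The list was chosen with earlier results of these data known, so its share beside that of all genes is a description.

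At 300 mosmol/kg 1 of 18 of these genes was at least 2-fold lower in the knockout, beside 2.44% of all genes. This was Mt1, for a metallothionein, with 36.7 FPKM in Scr_300 and 16.1 in Nfat5-KO_300. For 600 against 300 mosmol/kg, 13 of 18 had higher values in Scr cells and 10 of 19 in Nfat5-KO cells. Their median log2 ratios were 0.29 and 0.00051. The median of all genes was -0.04 in both comparisons. In Scr cells 16 were tested and 1 rose, Ampd3, with 4.69 and 17.3 FPKM (log2 1.86, SE 0.142, adjusted p = 0.0142 by limma), beside 0.948% of all genes. Its adjusted p was 0.0753 to 0.135 with any 1 library left out and 0.0752 without the filter. The insulin receptor substrate gene Irs2 had 20.6 and 43.2 FPKM (log2 1.04, SE 0.201, adjusted p = 0.0791). Tsc22d3 and Fkbp5, which belong to the same class by their known regulation, had log2 ratios of knockout to Scr at 600 mosmol/kg of -0.37 and -0.45.

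**Figure D4:**
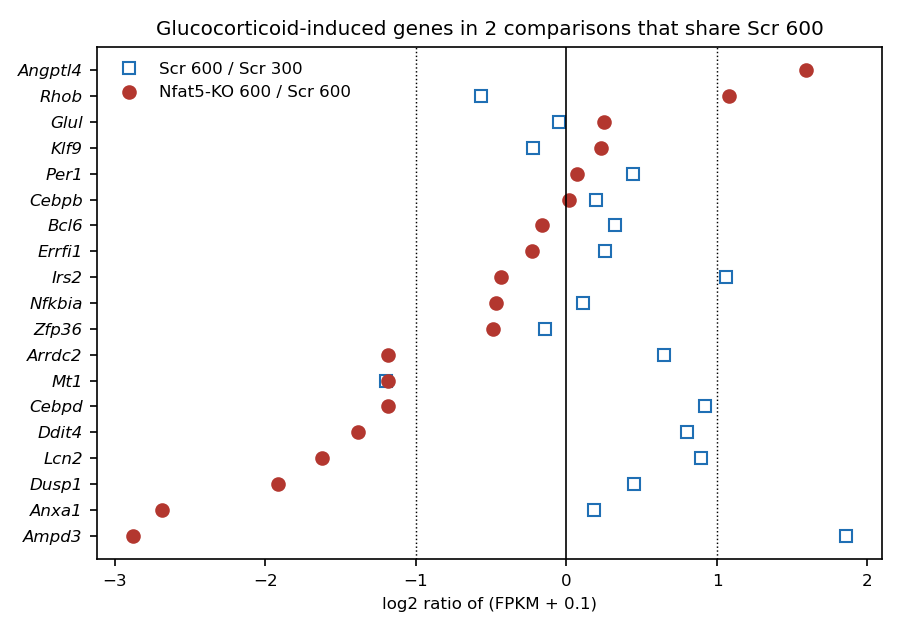
Log2 ratio of FPKM + 0.1 (x axis) of the 19 glucocorticoid-induced genes counted at 600 mosmol/kg, for Nfat5-KO_600 over Scr_600 (filled circles) and, where given, Scr_600 over Scr_300 (open squares). Dotted lines mark 2-fold. Filled circles of 8 genes lie left of -1, with Ampd3 lowest at -2.88, and both ratios use the Scr_600 value.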

How the data were processed

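RNA-seq of 12 mpkCCD libraries was used (poly-A selected, NEBNext Ultra, paired-end). The authors removed low-quality reads, mapped to GRCm38/mm10 with HISAT2, counted with HTSeq and calculated RPKM. Versions and annotation release are not given in the sources used here. The deposited FPKM table has 1 column per group. Of 54839 rows, 2436 without a value, 311 exact duplicates and 37 symbols with several rows were left out, which left 52015 genes.

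With exon lengths of GENCODE M21, an FPKM value times length proved to be a sum of whole reads, each times a step per library. Reads per library were solved where exactly 1 combination was possible, for 91.8% of genes above 0 in each Scr group. A length 7 bases too long gave 1 solution for 0.970% or fewer. How these libraries map to sample names was not determined.

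Log2 ratios of FPKM + 0.1 were taken over genes with at least 0.5 FPKM in either group. Scr_600 was compared with Scr_300 by limma (3.58.1, R 4.3.3, trend on mean level) on log2 (FPKM + 0.1) per library, over 11918 solved genes, 92.2% of those counted, with Benjamini-Hochberg adjustment. Of these, 189 passed 0.05 (113 higher, 76 lower). Count models were not used, since the deposited unit is FPKM. The solving of reads and the limma fit were checked on simulated data. Within Scr_300 and Scr_600, 3.94% and 4.89% of genes differed 2-fold or more between the 2 libraries. The authors name these libraries biological replicates. Standard errors are those moderated by limma, which draws the variance of each gene toward that of genes of like level. They are therefore not the spread of the gene's own libraries alone. For Hsd11b2 the SE was 0.362, with a log2 SD of 0.109 in Scr_300 and 0.110 in Scr_600. For Scnn1a the SE was 0.539, with SDs of 0.849 and 0.830.

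The members and gene lists were chosen with earlier results of these data known. Named genes are all members, Nfat5, up to 5 listed genes per comparison that were at least 2-fold changed with at least 1 FPKM, listed genes with a textbook link, and the 3 nearest profiles. Genes that passed limma, Sgk3, H6pd and Hsp90ab1 were named after their values were seen. Alternatives were other pseudocounts, filters and scalings, and leaving out each Scr library. Motifs were searched in RefSeq promoter windows (GRCm38.p6). Kidney samples were not analysed here. Python 3.11.15, numpy 2.4.6, pandas 2.3.3 and matplotlib 3.10.9 were used.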

Additional observations from a re-analysis of the deposited data

Results flagged for a closer look

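Scnn1a had hypertonic log2 ratios of opposite sign in the 2 genotypes, -1.11 for Scr and 0.96 for the knockout, a difference of 2.07 between Nfat5-KO and Scr. The difference was not tested, since values per knockout library could not be solved for this gene. The Scr libraries of Scnn1a had 1.75 and 4.16 FPKM at 300 mosmol/kg and 0.769 and 1.86 FPKM at 600 mosmol/kg, the shallower one higher in both. The names deeper and shallower do not match libraries between osmolalities.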

How the results depend on the processing

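No paired analysis was possible because the deposited columns hold group means and the libraries solved from them carry no replicate number. The 31 log2 ratios of members with at least 0.5 FPKM in either group were recomputed under 6 alternatives, with 180 values. None at least 2-fold changed sign, and 14 moved by more than the spread of the Scr libraries, all for Hsd11b2, Sgk1 and Fkbp5. With a pseudocount of 1 the number of members at least 2-fold changed in Scr_600 against Scr_300 was 1, and it was 1 with values scaled to the same sum, where Scnn1a was lost in both. In Nfat5-KO_600 against Nfat5-KO_300 it was 2 with median-of-ratios factors and 2 with the same sum, where Scnn1a passed the limit. Of members with hypertonic ratios at least 1 apart, 1 was left with a mean of at least 1 FPKM (Scnn1a), and 3 were counted with a pseudocount of 1, with median-of-ratios factors and with the same sum, where Hsd11b2 was added. The numbers of all genes at least 2-fold changed in Nfat5-KO_300 against Scr_300, Nfat5-KO_600 against Scr_600, Scr_600 against Scr_300 and Nfat5-KO_600 against Nfat5-KO_300 were 530, 972, 992 and 1346. They were 135, 338, 375 and 489 with a pseudocount of 1, 1228, 1884, 1835 and 2211 without a filter, and 259, 548, 553 and 855 with a mean of at least 1 FPKM. Scaling to the same sum moved the median of all genes by 0.02, 0.13, 0.13 and 0.24, and the share of higher genes among those 2-fold changed from 50.5% to 61.6% in the second comparison and from 60.3% to 82.8% in the fourth. The limma alternatives other than leaving out a library were chosen after seeing the data. Without a filter limma called 0 genes and 0 members (3228 genes at an unadjusted p under 0.05), and Sgk1 had a log2 change of 3.63 and an adjusted p of 0.0964. Over the other such alternatives its adjusted p was as low as 0.00933. Without 1 library the number of genes called ranged from 0 to 16 and of members from 0 to 1, the adjusted p of Sgk1 from 0.0442 to 0.136, and the log2 change of Nr3c2 from -0.17 to 0.95. Fewer samples enter those fits, and the lone library is assumed to vary like the pair. Scnn1b and Scnn1g are limited by their depth of 0 to 30 reads per library.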
